A study of Rattus norvegicus with 46 samples.

Results

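The silica effect 1 day after exposure was compared between whole blood and lung, gene by gene, as the difference (silica over air in blood) minus (silica over air in lung). The comparison used the 24 samples of that time among 46 in the series, taken from both tissues, and 22 libraries remained after 2 pairs of lung libraries were averaged. A negative difference means that silica over air was lower in blood than in lung. The genes described are those that changed in lung, sorted by how strongly blood expressed them.

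The animals were aged male Fischer 344 rats, an inbred strain. Silica rats breathed Min-U-Sil 5, a fine crystalline quartz dust, in whole-body chambers at 15 mg/m3 over 5 daily sessions of 6 hours, and air rats breathed filtered air on that schedule. The groups were silica blood (6 libraries), air blood (6 libraries), silica lung (6 libraries) and air lung (6 samples, 4 libraries after averaging), all collected 1 day after the last exposure. Blood RNA had its alpha and beta globin messenger RNA depleted, which lung RNA had not. Whether each sample came from its own animal is not stated in the labels, so the p-values cover only sample-to-sample spread, which may be technical.

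Inhaled quartz is taken up by alveolar macrophages, where it damages lysosomes and sets off release of interleukin-1 and of chemokines, which draw neutrophils and monocytes from blood into the air spaces. Epithelial cells answer with secreted defence proteins, acute-phase proteins and antioxidant enzymes. Whole blood holds circulating neutrophils, lymphocytes, monocytes, platelets and reticulocytes, but no epithelium and no tissue macrophages.

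Depth was 10.6 M to 16.8 M estimated counts in the blood libraries and 13.4 M to 19.2 M in the lung libraries. Silica blood library 11 stood apart: the first principal component of blood carried 66.2% of the variance and placed it at 95.6, with the 11 other blood libraries between -14.5 and -0.6. Its erythroid markers summed to 288632 CPM (counts scaled to library size within each tissue), beside 262663 CPM in silica blood library 12 and 83329 to 157577 CPM in the other silica blood libraries, and its neutrophil markers had the lowest sum in the silica blood group. The erythroid sum includes globin genes, whose messenger RNA was depleted, and library 12 lay at -10.9 on that component. Results that rest on library 11 are given with and without it. Among the air lungs, library 04-08 (an averaged pair) was high in proliferation genes, at 744.8 CPM summed. The defining markers matched the tissues: haemoglobin Hba1 ranged from 55545 to 232078 CPM in blood, and surfactant protein Sftpb was at 0.326 CPM or less in every blood library and at 2304 CPM or more in every lung library.

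In lung, 1196 genes rose and 640 fell with silica among 15724 tested (7.61% and 4.07%; edgeR quasi-likelihood test, Benjamini-Hochberg adjusted p under 0.05). In blood, 0 of 11876 genes passed the same test (0%), 430 had an unadjusted p under 0.05, and DESeq2 also called 0. Without silica blood library 11, edgeR again called 0 in blood, with 1094 genes at an unadjusted p under 0.05. The difference between the tissues passed in 28 of 16148 genes (0.173%), 25 of them negative (0.155%) and 3 positive (0.0186%). Without silica blood library 11 it passed in 141 of 16158 genes (0.873%), 105 negative (0.65%) and 36 positive (0.223%), and all 28 were among them. Leaving out air lung library 06 gave 18 differences and 1185 lung calls. The standard error of the log2 fold change had a median of 0.1997 in blood and 0.0801 in lung, and of 0.137 in blood without library 11, so a change of the size usual in lung was harder to detect in blood.

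Of the 1836 genes that changed in lung, 842 were well expressed in blood (a mean of at least 10 CPM over the 12 blood libraries), 448 lay between 1 and 10 CPM and 546 were barely expressed (under 1 CPM). These levels made up 45.9%, 24.4% and 29.7% of the lung calls, beside 38.7%, 31.9% and 29.4% of all genes tested in lung. Among the 174 genes that changed at least 2-fold in lung, the order was different: 27 were well expressed in blood (15.5%), 27 lay between (15.5%) and 120 were barely expressed (69.0%). In 116 of the 546 barely expressed genes, the 12 blood libraries held no count at all. In bulk samples, fewer cells of a type and less RNA per cell cannot be told apart.

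**Figure D1:**
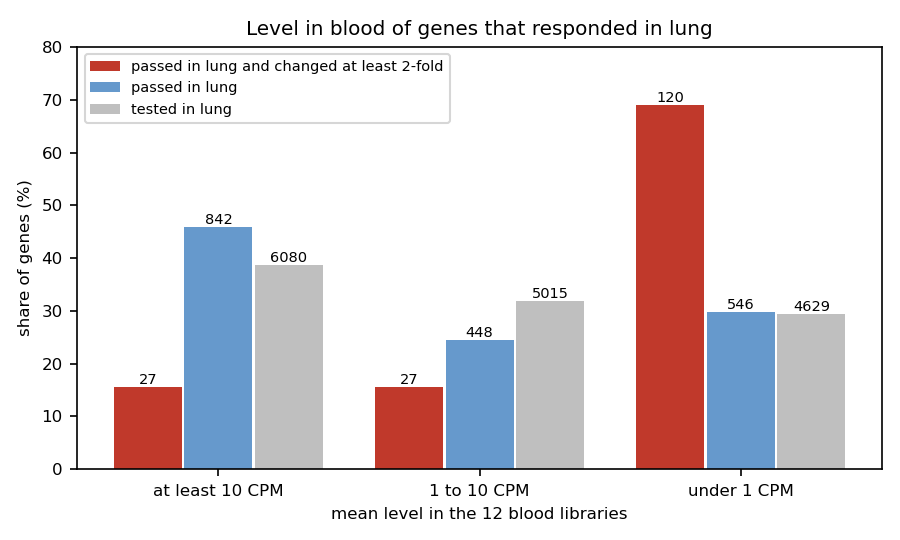
Bars give the share of genes (%, y axis) at each mean level in the 12 blood libraries (x axis) among genes that passed in lung and changed at least 2-fold, all genes that passed in lung and all genes tested in lung, with the number of genes above each bar. Genes under 1 CPM in blood make up 120 of the 174 that changed at least 2-fold, against 546 of 1836 that passed.

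The genes whose lung response blood lacked numbered 13. They were well expressed in blood, passed in lung and in the difference between the tissues, did not pass in blood, and had a blood effect under 0.5 times the lung effect or of opposite sign. A smaller blood effect in the direction of lung therefore also counts as lacking. They were 11 rises in lung (Muc20, Cd177, Rhbdl2, Il1r2, Chi3l1, C3, Sod2, Tiam1, Rassf4, Fdft1 and Slc11a2) and 2 falls (Mylip and Pla2g15). The rule used both effects, so the values that follow describe these 13 genes, the lung libraries enter both the lung call and the difference, and only the blood interval comes from other libraries. Of the 13, 6 had a higher CPM in air blood than in air lung. The number was 75 without silica blood library 11, 21 without air lung library 04-08, 8 without air lung library 05, and 7 without either air lung library 02-07 or air lung library 06.

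**Figure D2:**
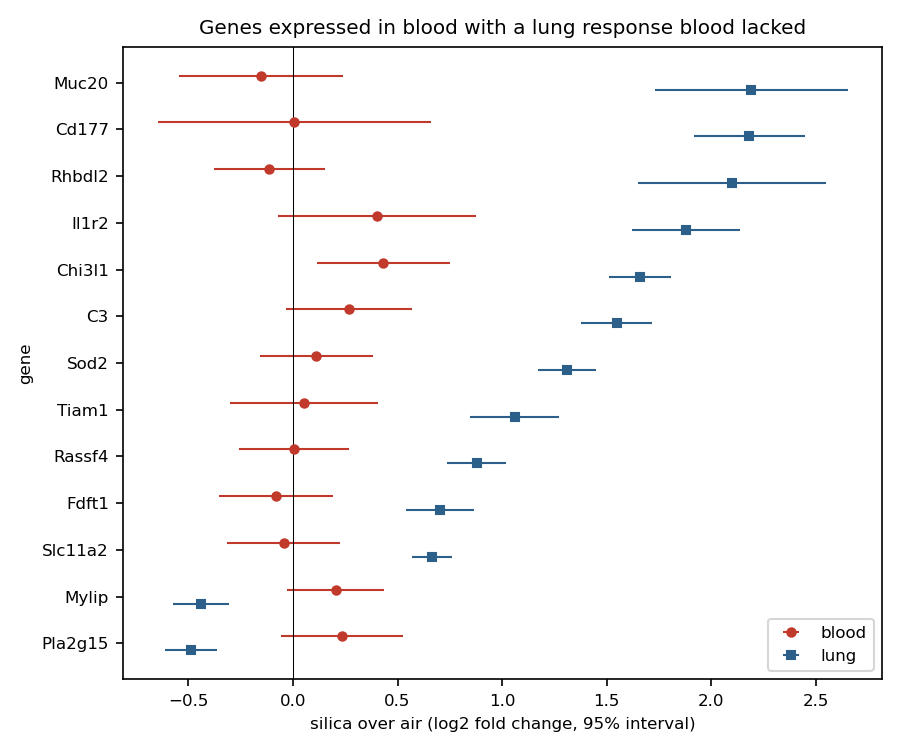
Log2 fold changes of silica over air (x axis) with 95% intervals for each of the 13 genes (y axis), blood as circles above lung as squares. The blood interval of Chi3l1 runs from 0.11 to 0.75 and lies above 0, while the intervals of the other 12 genes in blood include 0.

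Muc20, a membrane-bound mucin of epithelial surfaces, was the gene of this kind with the largest lung rise. Silica blood held 26.9, 36.7 and 51.5 CPM (lowest, median, highest of 6) and air blood 29.6, 41.9 and 49.2 CPM. Silica lung held 2.004, 2.82 and 3.47 CPM (lowest, median, highest of 6), against 0.653, 0.637, 0.597 and 0.552 CPM in the 4 air lung libraries. The blood groups overlapped and every silica lung lay above every air lung, though both lung groups were far below blood and rested on 275 and 38 counts in all. In blood, silica over air was -0.15 on the log2 scale (95% interval -0.55 to 0.24), the lung effect 2.191 ± 0.21 (SE), and the difference -2.33 (edgeR adjusted p = 0.000358).

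Rhbdl2, a rhomboid protease that cuts proteins within the membrane, had the same layout. Silica blood held 28.2, 32.2 and 40.0 CPM (lowest, median, highest) and air blood 33.3, 35.3 and 44.5 CPM. Silica lung held 3.46, 4.59 and 4.95 CPM, against 1.07, 1.40, 0.896 and 0.675 CPM in air lung. Again the blood groups overlapped, the lung groups did not, and air blood was 36.3 times air lung. The blood effect was -0.11 (interval -0.38 to 0.16), the lung effect 2.10 ± 0.21 and the difference -2.20 (edgeR adjusted p = 1.9e-05), the smallest adjusted p of the 28.

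Cd177, a surface glycoprotein of neutrophils, was the reverse in level: strong in lung and near the limit for blood. Silica blood held 7.41, 10.01 and 16.2 CPM and air blood 5.60, 8.51 and 22.8 CPM. Silica lung held 632, 741 and 806 CPM, against 179, 186, 150 and 123 CPM in air lung. The highest blood library was an air library, and the lung groups stood well apart. In blood, silica over air was 0.01 (interval -0.65 to 0.66), the widest interval of the 13, the lung effect 2.18 ± 0.12 and the difference -2.17 (edgeR adjusted p = 0.00657). Its estimated count was not whole in 37.5% of the libraries, so reads were shared with other transcripts and its level is uncertain to that extent.

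Il1r2 is the decoy receptor that binds interleukin-1 without signalling. Silica blood held 49.3, 68.1 and 96.1 CPM and air blood 39.5, 46.0 and 91.5 CPM. Silica lung held 13.6, 15.5 and 17.7 CPM, against 3.98, 3.31, 4.78 and 4.73 CPM in air lung. The blood groups overlapped through air library 08 and the lung groups did not overlap. The blood effect was 0.40 (interval -0.07 to 0.87), the lung effect 1.88 ± 0.12 and the difference -1.47 (edgeR adjusted p = 0.033). The difference did not pass when any of silica blood libraries 15 and 18, the 4 air lung libraries or silica lung libraries 10, 11, 13 and 15 was left out (largest adjusted p = 0.091, without air lung library 02-07).

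Chi3l1, a secreted chitinase-like protein made by macrophages and neutrophils, was the one of the 13 with a blood interval above 0. Silica blood held 459, 572 and 739 CPM and air blood 351, 398 and 519 CPM. Silica lung held 529, 558 and 652 CPM, against 202, 179, 173 and 168 CPM in air lung. The blood groups overlapped, and silica lung reached the level that silica blood had. In blood, silica over air was 0.43 (interval 0.11 to 0.75; unadjusted p = 0.0113, not passing the adjusted test), the lung effect 1.66 ± 0.07 and the difference -1.22 (edgeR adjusted p = 0.000541).

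C3, the central complement protein, is made by liver and by lung epithelium and macrophages. Silica blood held 104, 109 and 153 CPM and air blood 77.4, 98.1 and 113 CPM. Silica lung held 1207, 1383 and 1479 CPM, against 521, 469, 444 and 411 CPM in air lung. The highest blood value was silica library 11, and without it the blood effect was 0.18 (interval -0.04 to 0.40). With it the blood effect was 0.27 (interval -0.03 to 0.57), the lung effect 1.55 ± 0.08 and the difference -1.27 (edgeR adjusted p = 0.000358).

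Sod2, the mitochondrial manganese superoxide dismutase, was at almost the same level in both tissues under air. Silica blood held 179, 197 and 223 CPM and air blood 138, 185 and 230 CPM. Silica lung held 349, 415 and 441 CPM, against 165, 168, 172 and 156 CPM in air lung. Silica lung lay above all other libraries, while the air blood range enclosed that of silica blood. The blood effect was 0.11 (interval -0.16 to 0.38), the lung effect 1.31 ± 0.06 and the difference -1.19 (edgeR adjusted p = 0.000187).

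Tiam1, an exchange factor that activates the small GTPase Rac, and Rassf4, a Ras association domain protein, rose by less. Tiam1 had 11.1, 15.0 and 22.1 CPM in silica blood and 12.4, 14.6 and 18.2 CPM in air blood, with 24.3, 30.1 and 33.4 CPM in silica lung against 15.2, 15.9, 13.5 and 11.9 CPM in air lung. The effect in blood was 0.05 (interval -0.30 to 0.41), its lung effect 1.06 ± 0.10 and its difference -0.999 (edgeR adjusted p = 0.041). The blood groups overlapped and the lung groups did not. This difference passed in 6 of 22 fits that left out 1 library, those without air blood libraries 02 or 04, silica blood libraries 11 or 14, air lung library 04-08 or silica lung library 10, and its largest adjusted p was 0.14, without air lung library 06. Rassf4 had 12.1, 15.4 and 19.1 CPM in silica blood and 13.5, 15.5 and 16.6 CPM in air blood, with 66.1, 73.6 and 79.6 CPM in silica lung against 41.8, 39.9, 43.5 and 35.8 CPM in air lung. Its air blood values lay within the silica blood range, and its lung groups did not overlap. Its blood effect was 0.00 (interval -0.26 to 0.27), its lung effect 0.88 ± 0.07 and its difference -0.86 (edgeR adjusted p = 0.00657).

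Fdft1, squalene synthase of the cholesterol pathway, and Slc11a2, an importer of divalent iron, had the smallest lung rises of the 13. Fdft1 had 9.94, 12.8 and 13.9 CPM in silica blood and 10.2, 13.3 and 16.1 CPM in air blood, with 67.8, 77.6 and 83.7 CPM in silica lung against 48.5, 48.8, 49.3 and 40.9 CPM in air lung. The effect in blood was -0.08 (interval -0.35 to 0.19), its lung effect 0.70 ± 0.08 and its difference -0.77 (edgeR adjusted p = 0.0257). Its blood groups overlapped and its lung groups did not. The difference did not pass without air lung libraries 02-07 or 06 or silica lung library 15 (largest adjusted p = 0.0953). Slc11a2 had 9.12, 12.4 and 13.7 CPM in silica blood and 11.04, 12.1 and 13.1 CPM in air blood, with 65.1, 69.2 and 73.8 CPM in silica lung against 43.5, 44.6, 44.5 and 43.3 CPM in air lung. Its blood effect was -0.04 (interval -0.32 to 0.23), its lung effect 0.67 ± 0.04 and its difference -0.70 (edgeR adjusted p = 0.0229). Its blood groups overlapped too, and the difference did not pass without air lung libraries 02-07, 05 or 06 or silica lung library 12 (largest adjusted p = 0.0654).

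The 2 falls were Mylip, a ubiquitin ligase of sterol metabolism, and Pla2g15, a lysosomal phospholipase. Mylip had 50.6, 52.9 and 55.6 CPM in silica blood and 39.7, 46.0 and 52.5 CPM in air blood, with 56.4, 60.8 and 73.4 CPM in silica lung against 84.2, 81.7, 84.5 and 86.3 CPM in air lung. The effect in blood was 0.21 (interval -0.03 to 0.44; 0.02 to 0.40 without silica blood library 11), its lung effect -0.44 ± 0.06 and its difference 0.66 (edgeR adjusted p = 0.0169), and it did not pass without air lung libraries 02-07, 05 or 06 (largest adjusted p = 0.0654). In lung every silica library lay below every air library, and in blood the groups overlapped with the silica values on the upper side. Pla2g15 had 7.97, 11.1 and 13.5 CPM in silica blood and 8.03, 9.02 and 10.3 CPM in air blood, with 82.2, 91.2 and 96.2 CPM in silica lung against 126, 128, 140 and 114 CPM in air lung. Its blood effect was 0.23 (interval -0.06 to 0.53), its lung effect -0.49 ± 0.06 and its difference 0.73 (edgeR adjusted p = 0.041). Of the 22 fits that left out 1 library, it passed in the 4 without air blood library 05 or silica blood libraries 11, 14 or 15, and its largest adjusted p was 0.138, without air lung library 05.

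**Figure D3:**
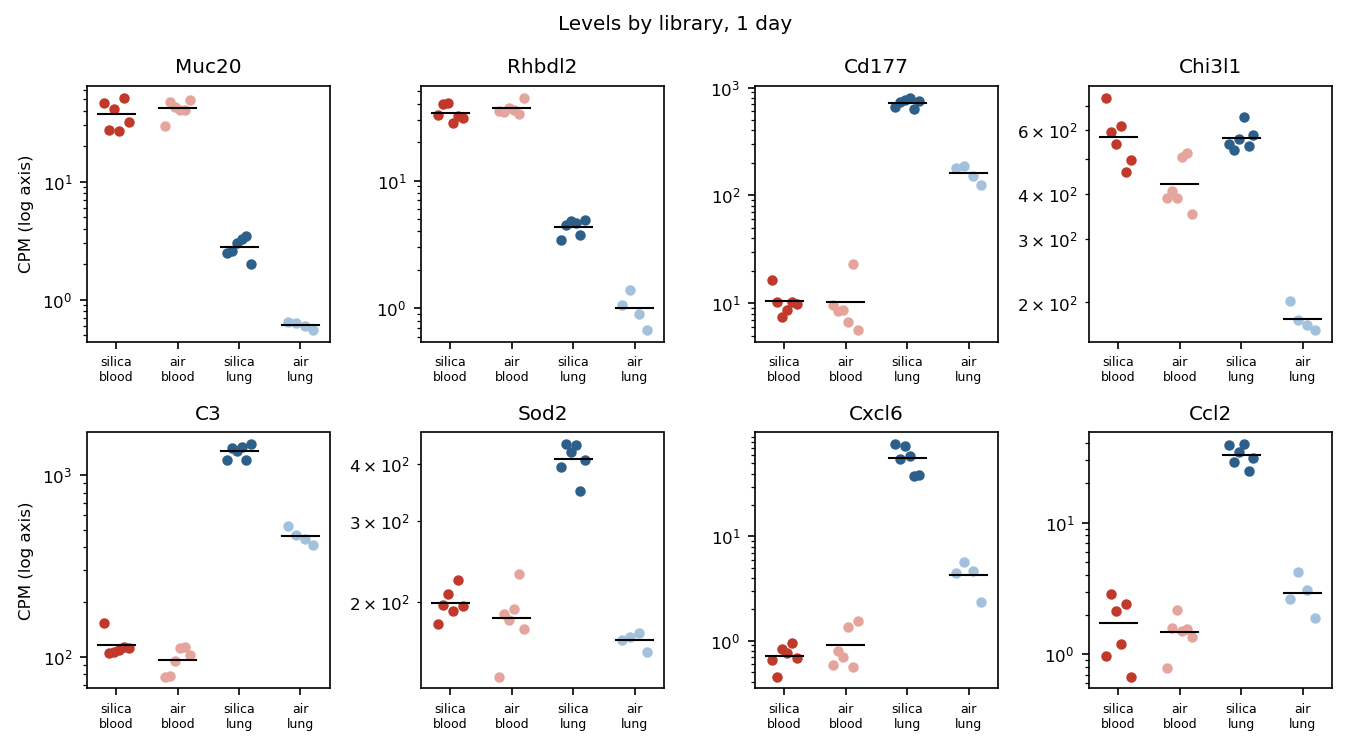
Level of 8 genes in each library, in CPM on a log axis (y axis), for silica blood, air blood, silica lung and air lung (x axis); points are libraries and lines are group means. Muc20, Rhbdl2, Cd177, Chi3l1, C3 and Sod2 separate silica from air in lung and overlap in blood, a layout favoured by the rule that chose them. The chemokines Cxcl6 and Ccl2 are low in blood in both groups.

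The other genes well expressed in blood give the setting for these 13. Over the 648 that rose in lung, the median effect was 0.09 in blood and 0.31 in lung, beside -0.01 in blood and 0.01 in lung over the 11528 genes tested in both tissues. In blood 79 of the 648 were higher with silica at an unadjusted p under 0.05 (12.2%), against 3.42% of all genes at this blood level, and 3 were lower, against 0.44%. Without silica blood library 11, 150 of 658 were higher (22.8%), against 8.82%. The lung estimate lay outside the 95% interval of the blood effect in 186 of the 648 (28.7%), against 9.87% of all genes tested in both tissues. The 648 were picked by their lung effect, so an excess over 9.87% follows at least in part from that choice. In 48 of the 648 the upper end of the blood interval was under 0.5 times the lung estimate. In the genes other than the 186, the blood interval included the lung estimate, so a lung-sized effect in blood was not detectable as absent at this precision. Over the 194 that fell in lung, the median effect was 0.05 in blood and -0.21 in lung, and 71 were lower in blood in estimate. At an unadjusted p under 0.05, 0 were lower in blood (against 0.44%) and 7 were higher (against 3.42%). Without silica blood library 11, the blood median was -0.03 over 197 such genes, with 113 lower in estimate. Of these 197, 17 were higher at an unadjusted p under 0.05, beside 8.82% of all genes at this blood level, so no excess is claimed. Another 3 were lower, for which the share over all genes in that fit was not computed.

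**Figure D4:**
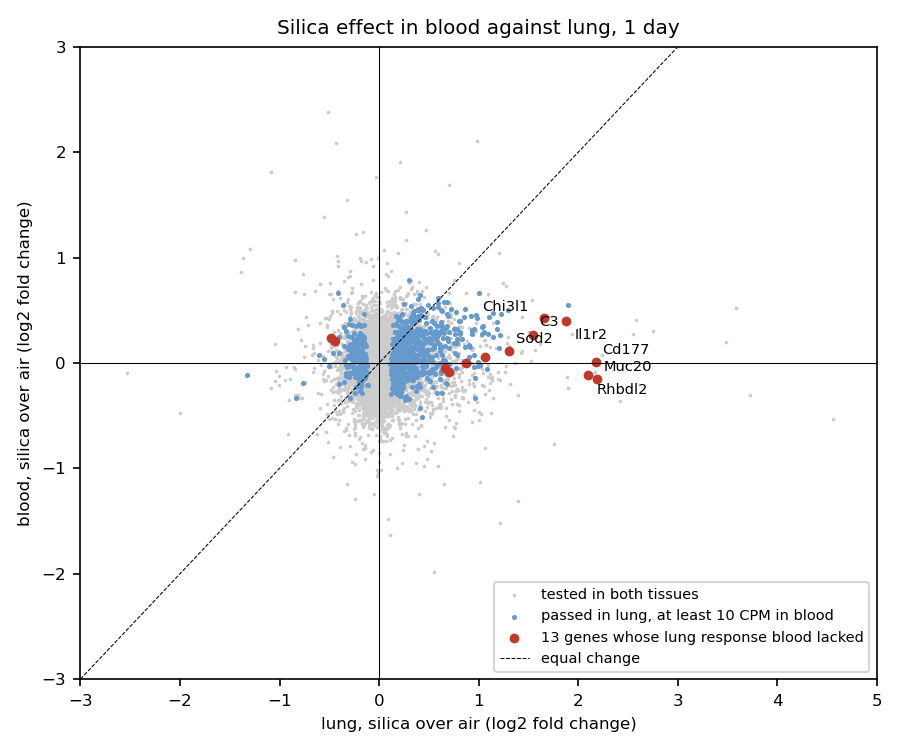
Silica over air in blood (log2 fold change, y axis) against the same in lung (log2 fold change, x axis) for the 11528 genes tested in both tissues, with genes that passed in lung at 10 CPM or more in blood in blue and the 13 genes in red; the dashed line marks equal change. The red points with lung rises lie between -0.15 and 0.43 in blood, and the highest, Chi3l1, has a blood interval above 0.

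Of the 27 genes at this blood level with a lung change of at least 2-fold, 26 rose in lung, with a median effect of 0.29 in blood and 1.18 in lung. In blood 22 of the 26 were higher with silica in estimate, beside 439 of the 648 lung rises at this level (67.7%). At an unadjusted p under 0.05, 5 of the 26 were higher in blood, beside 3.42% of all genes at this level. The lung estimate lay outside the blood interval in 25 of the 27, beside 9.87% of all genes tested in both tissues. The 27 were picked by the size of their lung change, so that count follows in part from the choice. Slc16a3, the lactate exporter of glycolytic cells, was nearest to equal change, at 0.66 in blood (interval 0.22 to 1.104) and 1.00 in lung, with a difference of -0.33 (edgeR adjusted p = 0.917); it was singled out after its values were seen. Alox15, an arachidonate lipoxygenase, was the one fall of that size, at -0.11 in blood (interval -0.69 to 0.47) and -1.33 in lung, with a difference of 1.22 (edgeR adjusted p = 0.258).

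Without silica blood library 11 the blood effect was better resolved, and 75 genes met the rule for a response that blood lacked, 60 rises and 15 falls. Some of them had a smaller rise in blood rather than none, such as S100a9 below and Chi3l1, at 0.35 in blood (interval 0.10 to 0.61). Added among the largest rises were S100a9, a calcium-binding protein of neutrophils, Hp, the haemoglobin scavenger haptoglobin, Zc3h12a, an RNase that degrades inflammatory messenger RNA, Fcgr2b, the inhibitory Fc receptor, and Gk, glycerol kinase. S100a9 had 640 CPM in silica blood library 11, 2297 to 3557 CPM in the other 5 silica bloods and 1314, 1542 and 2181 CPM in air blood (lowest, median, highest). Silica lung held 303, 333 and 479 CPM, against 110, 81.4, 89.8 and 99.4 CPM in air lung. Silica library 11 was the lowest of all 12 blood libraries, and the other 5 silica bloods lay above every air blood. The S100a9 blood effect was 0.55 (interval -0.10 to 1.199) with that library and 0.75 (interval 0.42 to 1.09) without it, the lung effect was 1.90, and the difference was -1.34 (edgeR adjusted p = 0.27) with it and -1.14 (edgeR adjusted p = 0.00625) without it.

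Haptoglobin Hp had 61.4, 67.0 and 85.4 CPM in silica blood and 38.8, 46.1 and 71.7 CPM in air blood, with 110, 114 and 131 CPM in silica lung against 52.6, 44.8, 46.1 and 45.9 CPM in air lung. Its blood groups overlapped through a single air library, 08. In blood, silica over air was 0.50 (interval 0.15 to 0.85), the lung effect 1.29 and the difference -0.79 (edgeR adjusted p = 0.11), or -0.83 (edgeR adjusted p = 0.0209) without silica blood library 11. Zc3h12a and, among the falls, Hopx had an estimated count that was not whole in 100% of the libraries, so their levels are uncertain.

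The 546 genes that changed in lung and were barely expressed in blood formed a different set. Their median level under air was 0.0460 CPM in blood and 19.6 CPM in lung, and 7 of the 546 had more CPM in air blood than in air lung. For most of them no blood effect could be fitted, since 19 of the 283 rises and 17 of the 263 falls had enough counts in blood to be tested, and an effect there was not detectable at this depth. In each library, 3 counts correspond to 0.179 to 0.282 CPM in blood. A difference between the tissues passed in 5 of the 283 rises, Vat1l, Cxcl6, Orm1, Ccl22 and LOC100911882, and in 0 of the 263 falls by edgeR.

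The 4 largest rises with a gene symbol in this set that have a promoter in the RefSeq table (rat build GRCr8) are shown, since these genes rose together in lung and NF-kB, a factor activated in inflammation, is known to control many chemokine genes. Each run covers 250 bases before to 50 after the start of the gene, 5′ to 3′ on the strand of the gene. Capitals mark matches on either strand to NF-kB (GGGA, any 4 bases, CC), the antioxidant response element (TGACNNNGC), the sterol response element (ATCACC followed by CCAC) or the TATA box (TATAAA).
Vat1l (chr19:59103386-59103685, plus strand): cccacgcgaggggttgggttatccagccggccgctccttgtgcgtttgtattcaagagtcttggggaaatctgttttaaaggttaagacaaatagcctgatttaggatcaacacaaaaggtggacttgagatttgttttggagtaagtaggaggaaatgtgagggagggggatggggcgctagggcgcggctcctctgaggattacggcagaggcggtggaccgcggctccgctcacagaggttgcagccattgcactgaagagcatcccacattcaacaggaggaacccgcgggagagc
Ccl7 (chr10:67513845-67514144, plus strand): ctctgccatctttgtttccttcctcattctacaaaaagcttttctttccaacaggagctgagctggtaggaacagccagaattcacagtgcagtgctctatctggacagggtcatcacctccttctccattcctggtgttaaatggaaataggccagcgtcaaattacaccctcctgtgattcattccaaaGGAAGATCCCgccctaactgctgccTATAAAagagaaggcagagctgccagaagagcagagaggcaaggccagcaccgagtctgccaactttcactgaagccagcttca
Slc26a4 (chr6:53873167-53873466, minus strand): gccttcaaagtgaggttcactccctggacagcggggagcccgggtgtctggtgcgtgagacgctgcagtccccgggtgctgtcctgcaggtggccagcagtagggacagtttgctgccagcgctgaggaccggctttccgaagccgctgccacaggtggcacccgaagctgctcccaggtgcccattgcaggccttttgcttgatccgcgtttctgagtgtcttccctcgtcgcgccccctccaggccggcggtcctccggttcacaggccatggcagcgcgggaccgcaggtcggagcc
Cxcl6 (chr14:17596368-17596667, minus strand): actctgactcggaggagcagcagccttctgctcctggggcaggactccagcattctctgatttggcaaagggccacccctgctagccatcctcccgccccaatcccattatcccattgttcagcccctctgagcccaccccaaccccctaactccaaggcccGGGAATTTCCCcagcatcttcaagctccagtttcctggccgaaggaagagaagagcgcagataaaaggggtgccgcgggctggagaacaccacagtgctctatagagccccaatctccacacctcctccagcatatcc

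Both chemokine promoters held an NF-kB match, starting 59 bases before the start in Ccl7 and 88 and 87 bases before it, as overlapping matches on either strand, in Cxcl6. Vat1l and Slc26a4 held none of the 4 motifs in this window. An NF-kB match stood in 73 of the 206 promoters found for lung rises under 1 CPM in blood (35.4%), in 137 of the 513 found for lung rises at 10 CPM or more in blood (26.7%), in 2 of 12 found for the 13 genes whose lung response blood lacked (16.7%) and in 6454 of all 33469 promoters in the table (19.3%). These shares are descriptions of letters in a window.

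Of the barely expressed rises, the 10 largest with a gene symbol were Vat1l, Ccl7, Slc26a4, Cxcl6, Orm1, Clca1, Smtnl1, Itih1, Bpifb1 and Spp1, and LOC100911882 had a larger one. Vat1l, a protein of the vesicle amine transport family, had more CPM in blood than in lung under air. Silica blood held 0.324, 0.821 and 1.17 CPM and air blood 0.423, 1.08 and 1.89 CPM, with 1.70, 4.01 and 6.90 CPM in silica lung against 0.119, 0.0637, 0 and 0.430 CPM in air lung. Every silica lung was above every air lung and the blood groups overlapped. The blood effect was -0.53 (interval -1.37 to 0.31), the lung effect 4.56 ± 0.65 (edgeR adjusted p = 0.00118) and the difference -5.07 (edgeR adjusted p = 0.00149).

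Ccl7, a chemoattractant of monocytes, had no count in the 6 silica bloods and at most 0.0793 CPM in air blood. Silica lung held 9.71, 12.6 and 15.8 CPM, against 1.07, 0.891, 0.597 and 0.552 CPM in air lung, a rise of 3.998 ± 0.22 (edgeR adjusted p = 1.29e-07). All silica lungs were above all air lungs, and blood could not be tested. Cxcl6, a chemokine that attracts neutrophils, had 0.452, 0.716 and 0.953 CPM in silica blood and 0.564, 0.743 and 1.53 CPM in air blood, with 37.6, 56.9 and 76.7 CPM in silica lung against 4.45, 5.73, 4.63 and 2.33 CPM in air lung. Cxcl6 was low in every blood library and its lung groups were far apart. The effect in blood was -0.31 (interval -0.97 to 0.36), its lung effect 3.73 ± 0.33 and its difference -3.99 (edgeR adjusted p = 2.8e-05). Slc26a4, the anion exchanger pendrin of airway epithelium, had at most 0.0903 CPM in silica blood and 0.0698 CPM in air blood, with 50.3, 69.2 and 80.3 CPM in silica lung against 4.75, 7.13, 5.00 and 2.58 CPM in air lung, a rise of 3.80 ± 0.24 (edgeR adjusted p = 1.31e-05). The lung groups again did not overlap.

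Further rises in this set were secreted proteins. Orm1, the acute-phase protein orosomucoid, rose by 3.56 ± 0.43 in lung (edgeR adjusted p = 0.000143), with 1.67 to 3.36 CPM in silica lung and 0 to 0.356 CPM in air lung, at 0.271 to 0.653 CPM in silica blood and 0.210 to 1.27 CPM in air blood. Itih1, a heavy chain of inter-alpha-trypsin inhibitor, rose by 3.20 ± 0.23, with 5.84 to 8.55 CPM in silica lung and 0.491 to 1.21 CPM in air lung. Bpifb1, a secreted airway protein with no count in blood, rose by 3.06 ± 0.37, with 17.2 to 38.2 CPM in silica lung and 1.79 to 6.24 CPM in air lung. In all of them the lung groups stood apart. Spp1 (osteopontin), a matrix protein of activated macrophages, rose by 3.02 ± 0.33, with 9.25 to 17.8 CPM in silica lung and 0.798 to 2.55 CPM in air lung, and at most 0.277 CPM in silica blood and 0.169 CPM in air blood. Smtnl1, a protein related to the smooth muscle protein smoothelin, rose by 3.31 ± 0.54 between low levels, 0.523 to 1.47 CPM in silica lung and 0 to 0.238 CPM in air lung. Its air lung level rested on 4, 0, 1 and 1 counts. Blood held 0 to 0.761 CPM of Smtnl1 under silica and 0.0705 to 0.419 CPM under air, so the highest air blood library was above every air lung library. Clca1, a goblet cell product with no count in blood, rose by 3.55 ± 0.92 (edgeR adjusted p = 0.035). Its silica lungs ranged from 0.479 to 5.33 CPM and its air lungs from 0 to 0.382 CPM. The Clca1 call was lost without any of the 4 air lung libraries or silica lung libraries 10, 12, 14 and 15 (largest adjusted p = 0.0984).

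The 5 largest falls in this set were those of Tac1, Dlk1, Car12, Kcnmb2 and Esrrb. Tac1, the precursor of the neuropeptide substance P, fell by 2.65 in lung (SE 0.33, edgeR adjusted p = 0.000164), with 0.105 to 0.327 CPM in silica lung and 0.982 to 2.24 CPM in air lung. Dlk1, a membrane protein related to Notch ligands, fell by 1.99 (SE 0.29, edgeR adjusted p = 0.00286), with 8.22 to 23.7 CPM in silica lung and 41.9 to 57.5 CPM in air lung, and had at most 0.0563 CPM in any blood library. Neither gene's lung groups overlapped. Esrrb, an orphan nuclear receptor, fell by 1.02 and Kcnmb2, a potassium channel subunit, fell by 1.103, both with no count in blood; the Kcnmb2 call was lost without air lung libraries 02-07 or 04-08 (largest adjusted p = 0.0751). Car12, a carbonic anhydrase, fell by 1.55, but its air lungs held 1.31, 7.38, 2.09 and 1.60 CPM, its fall was 0.66 without the highest, library 04-08, and its call was lost there and in 7 more of 10 fits, those without air lung library 05 or any silica lung library (largest adjusted p = 0.098).

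Between 1 and 10 CPM in blood, 8 rises and 1 fall differed between the tissues. These were Ccl2, Ly6al, LOC103694538, Rab7b, LOC100910898, Enpp2, Slc7a7 and Srxn1, and the fall was Ass1; they are named because the difference passed, after their values were seen. Ccl2, a monocyte chemokine, had 0.676, 1.67 and 2.89 CPM in silica blood and 0.784, 1.53 and 2.17 CPM in air blood, with 24.8, 32.7 and 39.5 CPM in silica lung against 2.61, 4.20, 3.06 and 1.90 CPM in air lung. Its blood effect was 0.20 (interval -0.54 to 0.94), its lung effect 3.49 ± 0.21 and its difference -3.27 (edgeR adjusted p = 0.000187). The lung groups of Ccl2 did not overlap and its blood groups did. Srxn1, sulfiredoxin, which repairs oxidised peroxiredoxins, had 8.97, 9.70 and 12.4 CPM in silica blood and 8.23, 9.14 and 9.83 CPM in air blood, with 17.5, 18.5 and 21.4 CPM in silica lung against 10.3, 10.3, 7.99 and 8.47 CPM in air lung. The effect in blood was 0.16 (interval -0.09 to 0.41), its lung effect 1.02 ± 0.09 and its difference -0.84 (edgeR adjusted p = 0.011), and its air levels in blood and lung were alike. Enpp2 (autotaxin), which makes lysophosphatidic acid, had effects of opposite sign, -0.61 in blood (interval -1.198 to -0.02; without silica blood library 11, -0.45 with an interval of -0.93 to 0.04) and 0.66 ± 0.05 in lung, with a difference of -1.22 (edgeR adjusted p = 0.0212, not passing without air lung libraries 05 or 06). Ass1, argininosuccinate synthase of the urea cycle, had the other order, 0.36 in blood (interval 0.03 to 0.69) and -0.72 ± 0.07 in lung, with a difference of 1.09 (edgeR adjusted p = 0.0018).

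Ly6al, a member of the Ly6 family of surface proteins, rose by 3.59 ± 0.22 in lung, against 0.52 in blood (interval -0.07 to 1.11). Rab7b, a small GTPase of endosomes, rose by 1.51 ± 0.11 in lung, against 0.29 in blood, and Slc7a7, a carrier of cationic amino acids, by 1.02 ± 0.05, with a blood interval of -0.38 to 0.38. The difference was lost without air lung library 06 for Rab7b (adjusted p = 0.0654) and without air lung library 02-07 for Slc7a7 (adjusted p = 0.0531). LOC100911882 had no count in any of the 6 air lung samples and 162 to 313 counts in each silica lung, at least 75.3-fold higher with 3 counts per library as the floor, and 13 counts over all blood libraries. Its lowest silica lung estimate, 161.674, was not whole, so reads were shared with other transcripts and its level is uncertain to that extent. LOC100362895 had a difference of -4.24 (edgeR adjusted p = 0.0327) though its lung effect of 0.41 did not pass (edgeR adjusted p = 0.286), and it was low in blood, where 5 of 6 silica libraries held no count. Its estimated count was not whole in 79.2% of the libraries and that of LOC103694538, a pseudogene in RefSeq, in 100%, so both levels are uncertain. The difference of LOC100362895 was lost in 11 of 22 fits that left out 1 library and that of LOC100910898 in 17, with largest adjusted p-values of 0.082 and 0.0953, both without air lung library 06.

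Of 27 chemokines tested in lung, 16 rose and 0 fell, against a background of 7.61% and 4.07%. Those shares of all genes also apply to each list below, with 0.173% for the difference, or 0.873% without silica blood library 11. The lists were chosen with earlier results of these data known, so an excess over these shares is no independent support. Of the 16 chemokines that rose, 11 were barely expressed in blood, 3 lay between 1 and 10 CPM (Ccl2, Ccl9 and Ccl4) and 2 were well expressed. The well expressed ones were Cxcl16, at -0.13 in blood and 0.23 in lung, and the macrophage and neutrophil attractant Ccl3, at -0.15 in blood (interval -0.48 to 0.19) and 0.97 in lung. Over the 9 chemokines tested in both tissues the median effect was -0.12 in blood and 0.52 in lung. The difference passed in 3 of the 27, Cxcl6, Ccl22 and Ccl2, and in 4 without silica blood library 11, where Ccl3 was added.

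The receptors that rose were the reverse of their ligands in level, in a list made up of leukocyte receptors. Of 16 leukocyte chemokine and adhesion receptors tested in lung, 6 rose, all well expressed in blood, among them Cxcr2, Itgam, Ccr1, Ccr7 and Selplg. Of the same 16, 1 fell, and it was barely expressed in blood. Cxcr2, the neutrophil receptor for Cxcl6 and its relatives, had an effect of 0.32 in blood (interval -0.15 to 0.79), or 0.48 (interval 0.19 to 0.76) without silica blood library 11, and of 0.95 in lung, with 112, 247 and 335 CPM in silica blood, 144, 195 and 242 CPM in air blood, 22.95, 28.0 and 40.9 CPM in silica lung and 17.1, 12.0, 14.3 and 16.5 CPM in air lung. Its blood groups overlapped and its lung groups did not. The Ccr7 call was lost without air lung library 05 or silica lung libraries 10, 11 or 13 (largest adjusted p = 0.0922). Over the 15 receptors tested in both tissues the median effect was 0.12 in blood and 0.31 in lung, and the difference passed in 0 by edgeR, with and without silica blood library 11. Among 17 inflammatory cytokines and receptors, 10 rose in lung, 7 of them well expressed in blood, and 1 that was barely expressed in blood fell. Il1b, the interleukin-1 beta precursor, was at 0.23 in blood (interval -0.08 to 0.54), or 0.30 (interval 0.04 to 0.55) without silica blood library 11, and at 0.79 in lung. Csf2rb, the shared beta chain of the GM-CSF receptor, was at 0.43 in blood (interval 0.06 to 0.80), or 0.28 (interval 0.04 to 0.53) without silica blood library 11, and at 0.98 in lung.

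Among lists with at least 5 genes tested in both tissues, neutrophil markers had the largest median effect in blood and in lung, though without silica blood library 11 their blood median of 0.375 was below the 0.385 of the endothelial genes. Over the 13 tested in both, the median effect was 0.33 in blood and 0.73 in lung, and 12 of the 13 were higher with silica in blood in estimate. In blood, Padi4, an arginine deiminase of neutrophil nuclei, had an effect of 0.72 (unadjusted p = 0.0024) and Mmp9, a gelatinase of neutrophil granules, one of 0.76 (unadjusted p = 0.0044), at 0.33 and 0.40 in lung. The summed level of the list was 2747 CPM in silica blood library 11, 4843 to 7068 CPM in the other 5 silica bloods and 3013 to 5139 CPM in air blood. In lung it was 1327 to 1770 CPM under silica and 449 to 548 CPM under air. So the silica bloods other than library 11 exceeded every air blood but library 08, and all silica lungs exceeded all air lungs. The lung sum leans on Cd177, which averaged 723 CPM in silica lung and 159 CPM in air lung. In blood Cd177 averaged 10.4 CPM under silica and 10.3 CPM under air. Of 15 markers tested in lung, 8 rose and 1 fell, beside 7.61% and 4.07% of all genes. The part that numbers of neutrophils have in the genes above was not tested.

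Acute-phase and metal or haem binders rose in 13 of 16 members in lung, 9 of them barely expressed in blood and 4 well expressed (Hp, Tf, Hmox1 and Lbp). Lcn2, lipocalin 2, which binds bacterial iron carriers, rose by 2.68 in lung, with 38.7, 50.2 and 53.9 CPM in silica lung against 8.43, 7.13, 9.86 and 5.16 CPM in air lung, and held at most 0.326 CPM in silica blood and 0.238 CPM in air blood. Its lung groups were far apart. Lbp, which presents endotoxin, had an effect of 0.50 in blood (interval 0.10 to 0.89) and 0.44 in lung. The difference passed in 1 member, Orm1, and in 5 without silica blood library 11. Complement rose in 15 of 19 members in lung and 1 fell. Among the rises, C1qa, C1qb and C1qc, the chains that start the classical pathway, were barely expressed in blood. Cfd, the protease that starts the alternative pathway, had estimates of opposite sign, 0.66 in blood (interval 0.15 to 1.18), or 0.44 (interval 0.07 to 0.81) without silica blood library 11, and -0.41 in lung, and their difference of 1.08 did not pass (edgeR adjusted p = 0.201).

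Cholesterol synthesis and uptake rose in 18 of 19 members in lung and 0 fell, and all 18 were expressed in blood, 9 of them at 10 CPM or more. Over the 19 the median effect was 0.06 in blood and 0.61 in lung. Cyp51, the sterol demethylase, was at -0.05 in blood (interval -0.36 to 0.26) and 0.78 in lung, and Fdps, farnesyl diphosphate synthase, at 0.02 (interval -0.26 to 0.30) and 0.65. The difference passed in 1 of the 19, Fdft1, in 6 without silica blood library 11 (among them Hmgcs1, Cyp51, Fdft1, Fdps and Insig1), in 3 without air blood libraries 07 or 08 or silica blood libraries 14 or 16, and in 0 without air lung libraries 02-07 or 06 or silica lung library 15.

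Lysosomal genes rose in 18 of 26 members in lung, 16 of them well expressed in blood, with a median effect of 0.07 in blood and 0.20 in lung. Cd68, a membrane protein of macrophage lysosomes, had 29.1, 38.2 and 49.0 CPM in silica blood and 24.5, 34.4 and 50.003 CPM in air blood, with 128, 135 and 143 CPM in silica lung against 70.2, 75.3, 64.2 and 68.7 CPM in air lung. Its lung groups stood apart while its blood groups covered the same range, at 0.08 in blood (interval -0.32 to 0.48) and 0.95 in lung. MHC class II genes, which present antigen, rose in 7 of 10 members in lung, all well expressed in blood, with a median of 0.04 in blood and 0.36 in lung. Cd74, their invariant chain, was at 0.00 in blood (interval -0.29 to 0.29) and 0.33 in lung. The difference passed in 0 lysosomal and 0 class II genes by edgeR, and in 2 and 1 without silica blood library 11.

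Of 13 airway secretory genes tested in lung, 6 rose, all under 1 CPM in blood: Slc26a4, Clca1, Bpifb1, Lpo, Pigr and Spdef. Alveolar type 2 genes rose in 11 of 16 members, 5 of them well expressed in blood, among them Fasn (fatty acid synthase) and Lpcat1, a lipid acyltransferase, which are not special to that cell. Alveolar type 1 genes fell in 7 of 13 members and endothelial genes in 8 of 15, beside 4.07% of all genes tested in lung. There were 0 rises in either list, beside 7.61% of all genes. In each of these lists 1 of the falls was well expressed in blood, Hopx, at 0.34 in blood (interval 0.03 to 0.65) and -0.36 in lung, and Vwf (von Willebrand factor), at 0.06 in blood and -0.18 in lung. The endothelial count was 5 without air lung library 05 and 2 without air lung library 06.

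Markers of T, B and NK cells had 0 calls in lung by edgeR and 0 at an unadjusted p under 0.05 in blood. Over the T cell list the median effect was -0.04 in blood and -0.10 in lung. Proliferation genes had a median of -0.23 in blood and 0.42 in lung with 0 of 23 called in either tissue, and in lung the air library 04-08 was as high as the silica libraries. Interferon-stimulated genes rose in 3 of 24 members in lung, beside 7.61% of all genes tested, and in 1 when any one of 7 lung libraries was left out.

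**Figure D5:**
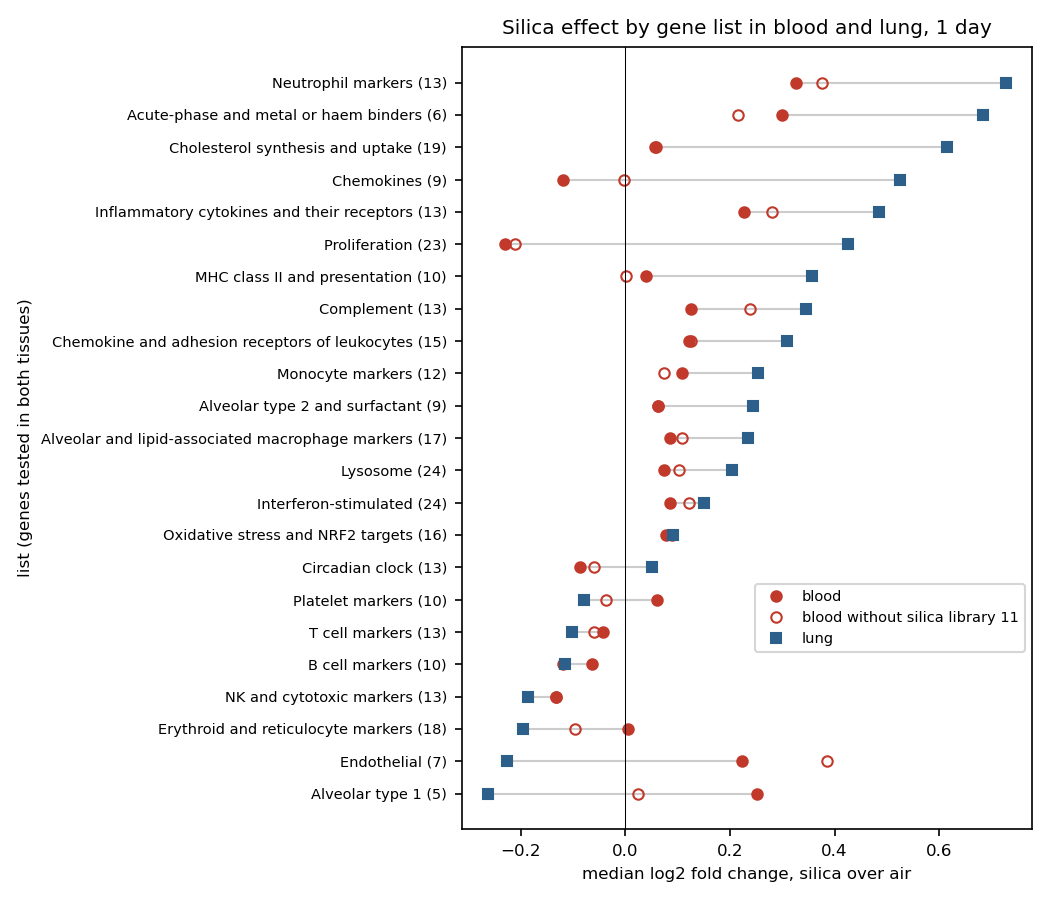
Median log2 fold change of silica over air (x axis) by gene list (y axis), over the genes tested in both tissues whose number stands in brackets, for blood (filled circles), blood without silica library 11 (open circles) and lung (squares). Neutrophil markers lie to the right in both tissues, at 0.33 in blood and 0.73 in lung, while cholesterol genes lie at 0.06 in blood and 0.61 in lung.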

How the data were processed

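The authors deposited Salmon's estimated counts per gene (expected counts, not scaled to depth or length), 30045 genes in each of 4 tables, of which the 2 tables of 1 day were used. Tools named in the submitters' processing notes, without roles, are STAR 2.6.1d and Salmon 1.10.1, cutadapt 3.4, Trim Galore 0.6.7 and bcl2fastq 2.19, with the build Rnor_6.0. An annotation release is not given in those notes. Per the labels' protocols, stranded libraries were made from polyadenylated RNA. Estimated counts need not be whole, and where they are not, reads were shared between transcripts.

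Lung air samples 02 and 07, and 04 and 08, were averaged before rounding: 10.7% of genes differed in the first pair and 9.54% in the second (chi-square test, p under 0.05), against 22.8% to 37.9% in 28 other lung pairs. Blood and lung tables were joined by gene identifier and rounded. With edgeR 4.0.16 (R 4.3.3), genes passing filterByExpr were scaled by TMM within each tissue (factors 0.697 to 1.30 in blood, 0.985 to 1.02 in lung) and tested with the robust quasi-likelihood F test, with 1 mean for each group and the difference of the silica effects as a contrast. P-values were adjusted by Benjamini-Hochberg over all genes tested, threshold 0.05. Intervals use 95% and the fitted degrees of freedom, and ± is a standard error unless a value says otherwise. The joint fit shares its estimate of spread between blood and lung. The floor for 0 counts was 3 counts per library, which covers counting error only, for libraries without molecular identifiers. CPM are on each tissue's own scale.

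Genes were named by rule: all genes whose lung response blood lacked, the 10 largest rises and 5 largest falls under 1 CPM in blood with a lung mean of at least 1 CPM (names with no symbol, such as LOC, passed over for the next), and list members. The members and lists were chosen with earlier results of these data known. Promoters are from RefSeq, build GRCr8, found for 19 of 21 named rises, and are not on the counts' build. The method was tested on simulated data. Alternatives were RLE scaling, TMM over both tissues, no filter, DESeq2 1.42.0, limma voom 3.58.1, unaveraged libraries, other level limits, a replicate block and each library left out; lists and named genes without silica blood library 11 were added after seeing the data. Results for some list members are not reported here.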

Additional observations from a re-analysis of the deposited data

Results flagged for a closer look

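The silica effect differed between blood and lung in 28 genes by the edgeR test of the difference (adjusted p under 0.05). The log2 difference, blood minus lung, was -11.83 for LOC100911882, whose value depends on the prior count since air lung held none, -5.07 for Vat1l, -4.24 for LOC100362895, -3.99 for Cxcl6, -3.80 for Orm1, -3.59 for Ccl22, -3.27 for Ccl2, -3.06 for Ly6al, -2.52 for LOC103694538, -2.33 for Muc20, -2.20 for Rhbdl2, -2.17 for Cd177, -1.47 for Il1r2, -1.32 for LOC100910898, -1.27 for C3, -1.22 for Chi3l1 and -1.22 for Enpp2. It was -1.20 for Rab7b, -1.19 for Sod2, -1.01 for Slc7a7, -0.999 for Tiam1, -0.86 for Rassf4, -0.84 for Srxn1, -0.77 for Fdft1 and -0.70 for Slc11a2, and it was 0.66 for Mylip, 0.73 for Pla2g15 and 1.09 for Ass1.

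A library lay far from the others of its group in 17 of 118 groups of values examined (Dixon's test), where chance gives about 1 in 20. In silica blood, library 11 was the highest of its group for Cd177 (16.2 CPM), C3 (153 CPM) and summed proliferation genes (810 CPM), and library 12 the lowest for Fdft1 (9.94 CPM). In air blood, library 08 was the highest for Cd177 (22.8 CPM) and Il1r2 (91.5 CPM), and library 09 for Rhbdl2 (44.5 CPM). In silica lung, library 11 was the highest for Mylip (73.4 CPM), library 15 for Dlk1 (23.7 CPM), library 13 for summed neutrophil markers (1770 CPM) and library 10 for summed T cell markers (382 CPM), while library 10 was the lowest for summed monocyte markers (26567 CPM). In air lung, library 06 was the lowest for Fdft1 (40.9 CPM), library 02-07 the highest for summed neutrophil markers (548 CPM), and library 04-08 the highest for Car12 (7.38 CPM), summed NK and cytotoxic markers (1050 CPM) and summed proliferation genes (745 CPM).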

How the results depend on the processing

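The direction of all 28 differences was kept in every setting run. Their number was 27 with RLE scaling, 31 with TMM over both tissues, 27 with no filter, 43 with limma voom (24 of the 28 among them), 64 with every library separate and 135 with DESeq2 (all 28 among the last 2). Leaving out 1 library gave 18 to 141 differences, 7 to 75 lung responses that blood lacked, 364 to 630 barely expressed in blood, 1185 to 2240 lung calls and 0 blood calls. The lung responses that blood lacked numbered 47 with DESeq2, 22 with limma voom, 28 with every library separate, 7 with a limit of 20 CPM and 8 with a lung change of at least 2-fold, and at that size 120 were barely expressed; the cause was not tested, except that the limits of 20 CPM and 2-fold take fewer genes by construction. Over the 16 libraries whose numbers stand in both tissues, the fit with a replicate block gave 0 differences (554 at an unadjusted p under 0.05) and without the block 9 (813). The labels do not say whether equal numbers in blood and lung pair the samples, and 7 correlations cannot decide it. The correlation between tissues was over 0.1 in 2 of 7, and 3 of 7 blood libraries matched their own number best. Most lung calls under 1 CPM in blood had too few counts there for a test.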
